A study of Mus musculus with 2 samples.

Results

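The genes described are 9 markers used to grade macrophage polarisation, chosen by name from the 31053 genes of the deposited matrix: Arg1, Nos2, Mrc1, Trem2, Gpnmb, Apoe, Il10, Cd163 and Chil3. All 9 were found in the matrix. The cells came from mouse tumours of a strain labelled NGS mouse, and the study's title places them in triple negative breast cancer treated with ACSS2 inhibitors. Treated (ACSS2i) and vehicle tumours gave 3 samples each, which were pooled and run as 1 droplet library with 6 antibody tags (D0, D1, D4, U2, U3 and U4). The design text names Bmal1 status, but no label gives a Bmal1 genotype, a dose, a time or an age. No label or file read here says which arm each tag marks. Each tag is therefore a sample of unknown treatment, ACSS2i was not compared with vehicle, and no p-value is given.

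Macrophages take on different programmes with the signals around them. Interferon gamma and bacterial products induce Nos2, the inducible nitric oxide synthase, while interleukin 4 and interleukin 13 induce Arg1 (arginase 1), Chil3 (Ym1, a chitinase-like secreted protein) and Mrc1 (the mannose receptor CD206) in mouse macrophages. Arg1 and Nos2 draw on the same substrate, arginine. Trem2 (a lipid-sensing receptor), Apoe (a lipid carrier) and Gpnmb (a membrane glycoprotein of lysosome-rich macrophages) mark a lipid-associated state described in tumours and fat, Il10 is an anti-inflammatory cytokine, and Cd163 is the scavenger receptor for haemoglobin.

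Barcodes with at least 500 genes and under 15% mitochondrial counts numbered 8784 of 9747, with a median of 20353.5 unique molecular identifiers (UMIs, each standing for 1 captured RNA molecule) per barcode. Myeloid barcodes, cut by at least 3 Lyz2 UMIs (lysozyme 2), at most 5 keratin (Krt8 and Krt18) UMIs and at most 1 Cd3 UMI, numbered 526, or 5.99% of those kept. A sum of at least 3 UMIs of C1qa, C1qb and C1qc (the subunits of complement C1q, made by tissue macrophages) split them into 377 C1q-high barcodes, 71.7% of the myeloid ones (exact 95% interval 67.6 to 75.5), and 149 C1q-low barcodes. Few lay near this split, 6 with a sum of 3 and 9 with a sum of 2, while 128 had none. The median depth was 4286 UMIs in C1q-high and 2897 UMIs in C1q-low barcodes. The 5810 tumour barcodes, cut by at least 3 keratin UMIs and no Ptprc (CD45), had a median of 25820 UMIs, and 3 barcodes met both the myeloid and the tumour rule.

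The C1q-high class carried the macrophage markers at a summed 2567 CPM (UMIs per 1000000 gene UMIs of the class), against 1795 CPM in the C1q-low class and 15.5 CPM in tumour barcodes. Of the macrophage markers Fcgr1 alone was lower in C1q-high barcodes, at 222 CPM against 419 CPM in C1q-low barcodes. The sum of the monocyte markers ran opposite to the macrophage sum, with 696 CPM in C1q-high and 4057 CPM in C1q-low barcodes. Within that list Ly6c2 stood at 78.7 CPM in C1q-high and 850 CPM in C1q-low barcodes, and Plac8 at 102 and 2167 CPM in the same order. The 6 neutrophil markers summed to 138 CPM in C1q-high and 154 CPM in C1q-low barcodes, the 7 dendritic markers to 19.3 and 44.7 CPM with Xcr1 and Clec9a at 0. The T markers, which the myeloid rule itself limits through Cd3, summed to 8.86 CPM in C1q-high and 20.3 CPM in C1q-low barcodes, the fibroblast markers to 310.05 and 457 CPM, and the tumour markers to 174 and 163 CPM. In the tumour class Krt8 and Sox9 were found in 99.97% and 97.9% of barcodes, but Epcam had 5 UMIs and Krt7 had 3 in the whole class, and the stromal gene Dcn was found in 96.8%. The name tumour barcodes therefore stands for the keratin rule, not for an epithelial marker profile.

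The promoters of Apoe, Mrc1, Trem2 and Chil3 are shown because these are the members that differed by more than 2-fold between the myeloid classes, the first 3 in one direction and Chil3 in the other. Each is the 250 bases before the transcription start from RefSeq (GRCm38.p6), 5′ to 3′ on the gene's own strand, and 6 of the 9 members matched this table. Capitals mark every match, on either strand, to 5 motifs: ACGTG (hypoxia response core), CACGTG (E-box of the Mitf and Tfe family), the STAT6 type motif (TTC and GAA spaced by NNNN), TTGCGCAA and the looser TTNNGNAA (both of the C/EBP type). Every CACGTG holds an ACGTG, and every TTGCGCAA is also a TTNNGNAA.
Apoe, chr7:19699189-19699438, minus strand: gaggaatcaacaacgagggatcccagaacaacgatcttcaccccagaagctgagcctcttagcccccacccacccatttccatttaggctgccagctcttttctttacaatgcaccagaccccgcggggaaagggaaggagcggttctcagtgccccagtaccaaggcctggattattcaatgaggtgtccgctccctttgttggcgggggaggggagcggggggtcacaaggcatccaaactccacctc
Trem2, chr17:48346151-48346400, plus strand: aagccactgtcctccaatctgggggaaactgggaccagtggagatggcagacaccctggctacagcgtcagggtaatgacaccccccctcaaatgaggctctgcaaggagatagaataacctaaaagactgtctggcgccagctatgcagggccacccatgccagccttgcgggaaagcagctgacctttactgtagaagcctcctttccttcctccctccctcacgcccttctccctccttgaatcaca
Mrc1, chr2:14229164-14229413, plus strand: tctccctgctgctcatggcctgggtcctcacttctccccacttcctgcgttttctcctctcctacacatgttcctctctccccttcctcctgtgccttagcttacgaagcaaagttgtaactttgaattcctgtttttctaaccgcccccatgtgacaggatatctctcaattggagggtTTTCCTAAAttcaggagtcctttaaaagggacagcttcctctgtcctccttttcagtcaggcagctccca
Chil3, chr3:106167565-106167814, minus strand: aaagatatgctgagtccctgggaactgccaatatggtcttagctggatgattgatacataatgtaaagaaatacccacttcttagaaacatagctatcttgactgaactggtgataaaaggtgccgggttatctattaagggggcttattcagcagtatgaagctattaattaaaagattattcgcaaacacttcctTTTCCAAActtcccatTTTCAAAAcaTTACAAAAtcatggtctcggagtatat
The Apoe and Trem2 windows held none of the 5 motifs. RefSeq gave several Apoe windows, of which the farthest upstream is shown, and the others held none of the motifs either. The Mrc1 window held 2 overlapping TTNNGNAA matches, in the run of capitals, beginning 70 and 69 bases before the start. The Chil3 window held 3 TTNNGNAA matches, which begin 53 bases (the farthest) to 27 bases (the nearest) before the start. Among all 32851 mouse promoter windows of this length, TTNNGNAA was present in 36.8%, the STAT6 type motif in 5.85%, ACGTG in 16.6%, CACGTG in 6.02% and TTGCGCAA in 0.164%. A match describes these letters and is not a measured binding site.

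Between the myeloid classes, Apoe, Mrc1 and Trem2 were more than 2-fold higher in C1q-high barcodes and Chil3 was more than 2-fold lower, while Arg1 and Nos2 stayed within 2-fold. Gpnmb, Il10 and Cd163 had fewer than 20 UMIs in the 2 classes together, the minimum for a count, so 6 of the 9 members were counted. Those 3 higher members stand beside 9.78% of the 7865 genes counted that were at least 2-fold higher in C1q-high barcodes, and the 1 lower member beside 3.13% that were at least 2-fold lower. The median ratio over the 6 counted members was 1.81, and over all genes counted it was 1.04. Intervals here and in the following are exact at 95% and cover counting error only, since all barcodes come from 1 library.

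**Figure D1:**
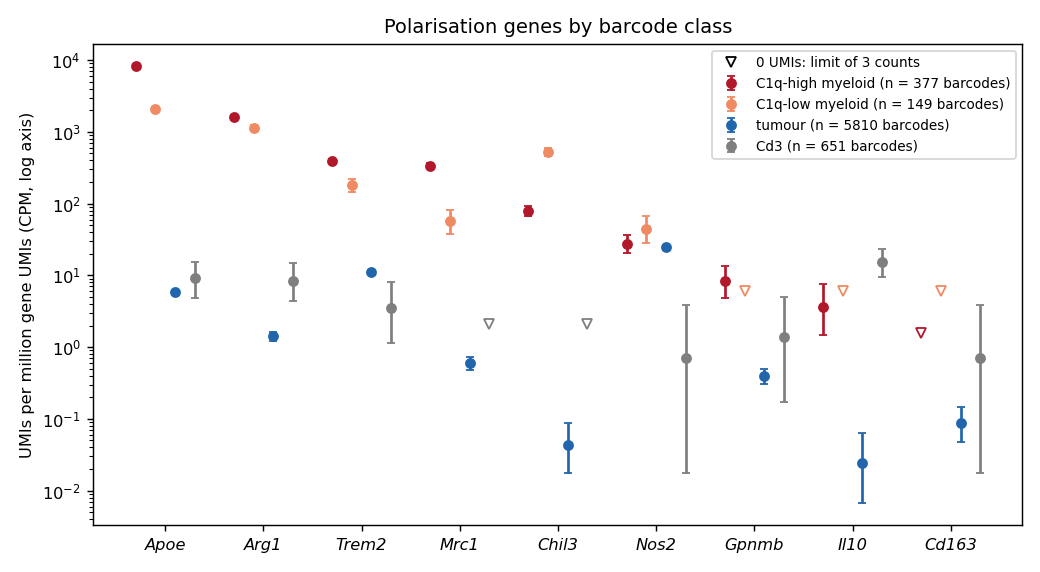
Level of each member in CPM (log axis) in C1q-high myeloid, C1q-low myeloid, tumour and Cd3 barcodes, with exact 95% Poisson bars; open triangles are the limit that 0 UMIs allows. Apoe, Trem2 and Mrc1 lie highest in C1q-high barcodes, Chil3 in C1q-low barcodes, and Nos2 lies at 24.7 CPM in tumour barcodes, close to C1q-high (27.6 CPM) and below C1q-low barcodes (44.7 CPM).

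Arg1, the arginase that turns arginine into ornithine and urea (chr10:24915221-24927484, minus strand, here and below from GENCODE M21 on GRCm38), gave 3138 UMIs or 1635 CPM (1578 to 1693) in C1q-high barcodes and 562 UMIs or 1142 CPM (1050 to 1241) in C1q-low barcodes. The ratio of C1q-high to C1q-low was 1.43 (1.31 to 1.57), short of 2-fold. By tag, the C1q-high level was 2551 CPM in D0, 1390.1 CPM in D1 and 2258 CPM in U2, and the C1q-low level was 1723 CPM in D0, 926 CPM in D1 and 1341 CPM in U2. These are the 3 tags with at least 20 barcodes in both classes. Arg1 was higher in C1q-high barcodes in each of the 3 tags, but the classes overlapped across tags, since C1q-low barcodes of D0 lay above C1q-high barcodes of D1. Arg1 was seen in 77.2% of C1q-high and 47.7% of C1q-low barcodes, and in 54.7% and 36.7% of them after each was thinned to 1000 UMIs. The 10% of C1q-high barcodes with most Arg1 held 40.9% of the Arg1 UMIs of that class, and the 10% of C1q-low barcodes with most held 52.8% of theirs.

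Nos2, the nitric oxide synthase (chr11:78920787-78960254, plus strand), gave 53 UMIs or 27.6 CPM (20.7 to 36.1) in C1q-high barcodes and 22 UMIs or 44.7 CPM (28.0 to 67.7) in C1q-low barcodes, a ratio of 0.618 whose interval of 0.369 to 1.07 spans 1. Of the C1q-low UMIs, 8 of 22 were in 1 barcode with no tag and 16050 gene UMIs, and the class stood at 29.4 CPM without it. In D0, D1 and U2, the 3 tags with at least 20 barcodes in both classes, C1q-high barcodes had 23.1, 6.85 and 71.9 CPM. C1q-low barcodes there had 0, 6.76 and 64.9 CPM, so the pooled order was not seen, but the intervals of the classes overlapped in each tag. In U3 and D4, with fewer barcodes, the order was the pooled one. C1q-high barcodes had 12.5 CPM in U3 and 0 in D4, against 102 and 133 CPM in C1q-low barcodes. The 0 in D0 rests on 81264 gene UMIs, and the D1 values on 6 and 1 Nos2 UMIs. U2 held 38 of the 75 myeloid Nos2 UMIs, and without that tag the pooled ratio was 0.356. Nos2 was seen in 24 myeloid barcodes, and 11 of these had 3 or more Nos2 UMIs. Arg1 UMIs were also held by 21 of the 24, a count made without thinning. In C1q-high barcodes this was 14 of 15, where Arg1 was in 77.2% of the class and the product of the 2 shares gave 11.6. In C1q-low barcodes it was 7 of 9, with the Arg1 share of that class given above.

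Apoe (chr7:19696109-19699188, minus strand), the apolipoprotein that carries cholesterol out of macrophages, gave 15716 UMIs or 8189 CPM (8062 to 8318) in C1q-high and 1018 UMIs or 2069 CPM (1944 to 2200.3) in C1q-low barcodes, 3.96-fold higher (3.71 to 4.22). C1q-high barcodes had 12616 CPM in D0, 8407 CPM in D1 and 8783 CPM in U2, and C1q-low barcodes had 3753, 2230.3 and 2206 CPM in the same tags. The classes did not overlap over these tags. The median C1q-high barcode held 65.1 Apoe UMIs per 10000 gene UMIs and the median C1q-low barcode 5.14. Thinned to 1000 UMIs, 87.9% of C1q-high and 50.3% of C1q-low barcodes had an Apoe UMI.

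Trem2 (chr17:48346401-48354147, plus strand), the receptor that signals through Tyrobp and binds lipoproteins, gave 395 CPM (367 to 424) in C1q-high and 181 CPM (145 to 223) in C1q-low barcodes, 2.18-fold higher (1.75 to 2.75). C1q-high barcodes had 404 CPM in D0, 450 CPM in D1 and 380 CPM in U2, against 246, 189 and 184 CPM in C1q-low barcodes, with no overlap. Its ratio lay closest to the 2-fold limit: it was 1.97 without the barcodes of tag D1 and 1.99 with a Lyz2 minimum of 10. Trem2 was seen in 75.9% of C1q-high and 36.9% of C1q-low barcodes, and in 33.5% and 14.97% of them after thinning.

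Mrc1 (chr2:14229392-14332057, plus strand, with the microRNA gene Mir511 inside it on the same strand), the mannose receptor, gave 649 UMIs or 338 CPM (313 to 365) in C1q-high and 28 UMIs or 56.9 CPM (37.8 to 82.3) in C1q-low barcodes, 5.94-fold higher (4.07 to 9.01). The C1q-high level was close to even over tags, at 369 CPM in D0, 393 CPM in D1 and 380 CPM in U2. The C1q-low level was 24.6, 94.6 and 64.9 CPM in those tags, below every C1q-high value, but its D0 value rests on 2 UMIs. After thinning, 26.8% of C1q-high and 4.76% of C1q-low barcodes had an Mrc1 UMI.

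Gpnmb (chr6:49036546-49070929, plus strand) gave 16 UMIs in 6 C1q-high barcodes, 8.34 CPM (4.77 to 13.5), and 0 in C1q-low barcodes, where 0 UMIs allow up to 6.10 CPM. A single U2 barcode held 6 of the 16 UMIs, and the C1q-high level was 5.25 CPM without it, under that limit, so a difference was not detectable at this depth. Of the 16 UMIs, 10 were in tag U2, 4 were in 1 barcode with several tags, and 1 each in D1 and U3. The lipid-associated members thus split into Apoe and Trem2, seen in most C1q-high barcodes, and Gpnmb, seen in 1.59% of them.

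Chil3 (chr3:106147554-106167564, minus strand) was the only counted member more than 2-fold lower in C1q-high barcodes. It gave 151 UMIs or 78.7 CPM (66.6 to 92.3) in C1q-high and 256 UMIs or 520.4 CPM (459 to 588) in C1q-low barcodes, 6.61-fold lower in C1q-high (5.39 to 8.14). C1q-high barcodes had 300.1 CPM in D0, 36.5 CPM in D1 and 13.5 CPM in U2, against 689, 473 and 941 CPM in C1q-low barcodes, with no overlap over these tags. The D0 C1q-high value came from 52 UMIs in 6 barcodes. In U3, with under 20 barcodes in each class, C1q-high barcodes had 12.5 CPM. C1q-low barcodes of U3 had 178 CPM from 7 UMIs, below the D0 C1q-high value. A single C1q-high barcode with several tags held 58 of the 151 UMIs, and the class stood at 48.6 CPM without it. The ratio of C1q-high to C1q-low was 0.0943 with several-tag barcodes removed and 0.233 without tag U2. Chil3 was seen in 4.77% of C1q-high and 35.6% of C1q-low barcodes, and in 2.68% and 25.2% after thinning. The monocyte markers Ly6c2 and Plac8, given above, were higher in the same C1q-low class, and their part in the Chil3 difference was not tested. Chil4, a near-identical copy that could share reads with Chil3, had 0 UMIs in both classes.

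Il10 (chr1:131019845-131024974, plus strand) gave 7 UMIs in 6 C1q-high barcodes, 3.65 CPM (1.47 to 7.52), and 0 in C1q-low barcodes, where up to 6.10 CPM is allowed, so a difference was not detectable at this depth. Of the 7 UMIs, 6 were in D1. Cd163 (chr6:124304656-124330527, plus strand) had 0 UMIs in all 526 myeloid barcodes, which allows up to 1.24 CPM and a share of up to 0.570% of barcodes with a UMI.

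**Figure D2:**
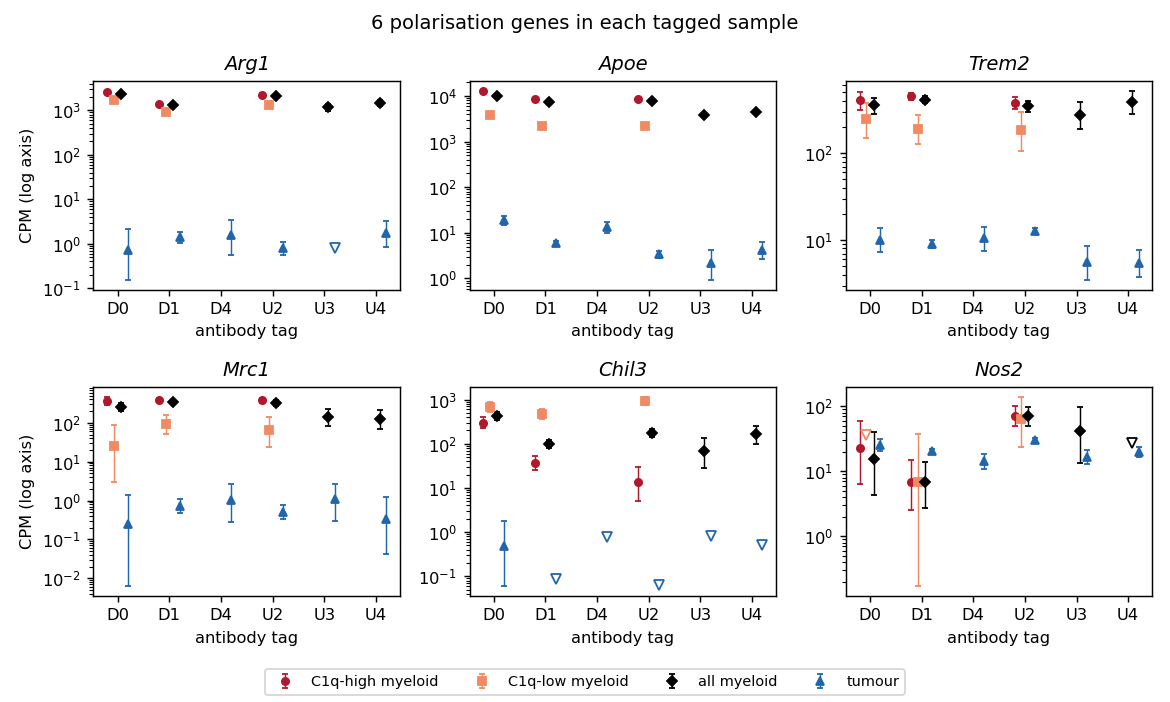
Level of 6 members in CPM (log axis) for each antibody tag in C1q-high myeloid, C1q-low myeloid, all myeloid and tumour barcodes, with exact 95% Poisson bars; classes with under 20 barcodes of a tag are left out and open triangles are the limit that 0 UMIs allows. Apoe, Trem2 and Mrc1 lie higher in C1q-high than in C1q-low barcodes in D0, D1 and U2, Chil3 lies lower, and tumour barcodes lie far below for all 6 except Nos2.

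Over the 5 tags with at least 20 myeloid barcodes, the level of a member in all myeloid barcodes varied most, among the 6 counted members, for Chil3 and Nos2. Chil3 stood at 424 CPM in D0, 99.6 CPM in D1, 173 CPM in U2, 67.0 CPM in U3 and 163 CPM in U4. Nos2 stood at 15.7 CPM in D0, 6.83 CPM in D1, 70.7 CPM in U2, 41.9 CPM in U3 and 0 in U4, where 110250 gene UMIs were read. Trem2 was the most even of the 6, with a lowest value of 276 CPM in U3, a median of 354 CPM and a highest value of 412 CPM in D1. Arg1 ranged from 1164 CPM in U3 to 2286 CPM in D0, with a median of 1478 CPM. Apoe ranged from 3760 CPM in U3 to 9786 CPM in D0 and Mrc1 from 127 CPM in U4 to 349.6 CPM in D1. U3 and U4, low for both, had 24 and 31 myeloid barcodes. The C1q-high share of myeloid barcodes was 62.5% in U3, 58.1% in U4 and 58.9% in D0, against 72.7% in U2 and 78.6% in D1. D0, the highest tag for Apoe and Arg1, thus had one of the lower shares, and the part of this share in the differences between tags was not tested.

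Members were next counted within the same barcodes, each thinned to 1000 UMIs, and set beside the number that the product of the 2 shares would give. Of 36 pairs, 9 had a product of at least 5 C1q-high barcodes, and 8 of these were seen together more often than the product. The ratios were small, with a median of 1.06 and a range of 0.910 to 1.28. Arg1 and Trem2 were together in 78 C1q-high barcodes, where the product gave 68.4, and in 15 C1q-low barcodes, where it gave 8.08. Arg1 and Mrc1 were together in 57 C1q-high barcodes against a product of 54.7, and Mrc1 and Trem2 in 34 against 33.5. In C1q-low barcodes 5 of 6 counted pairs lay above the product (median 1.17, range 0.966 to 1.86), but 3 of 6 did with several-tag barcodes removed. Apoe and Chil3 lay close to the product in both classes, in 8 C1q-high barcodes against 8.79 and in 18 C1q-low barcodes against 18.6. Unthinned, this C1q-high pair was in 17 barcodes against 16.8.

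**Figure D3:**
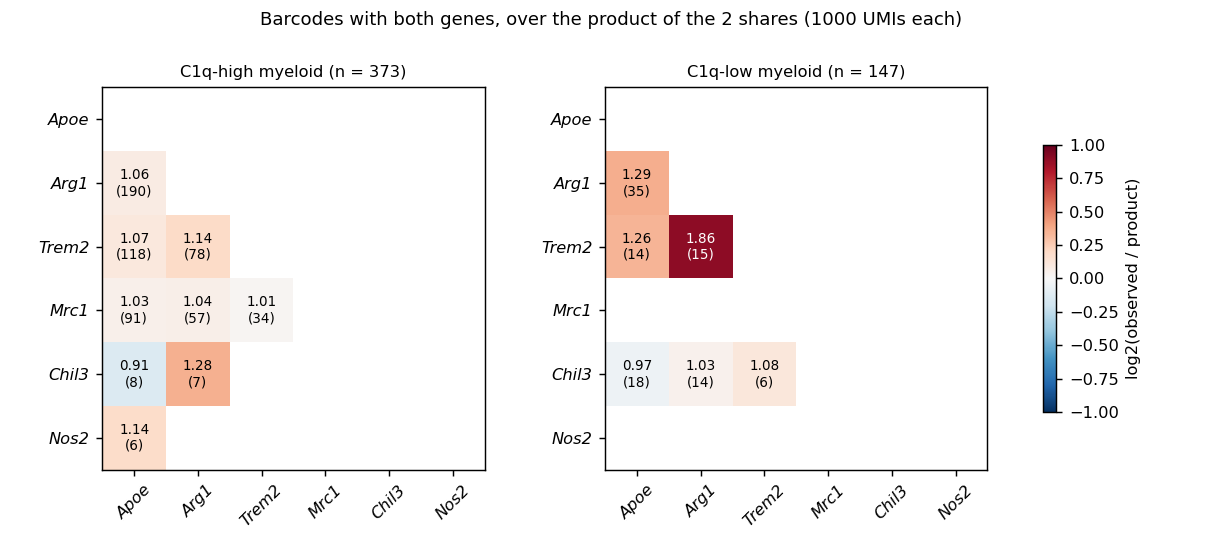
Number of barcodes with both members of a pair (in brackets) and its ratio to the product of the 2 shares, colour being log2 of that ratio, in C1q-high (n = 373) and C1q-low (n = 147) myeloid barcodes thinned to 1000 UMIs; pairs with a product under 5 barcodes are blank. The C1q-high ratios lie between 0.910 and 1.28, and the highest value is 1.86, for Arg1 and Trem2 in C1q-low barcodes.

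Members of the alternative activation and lipid-associated states were seen in the same barcodes, with C1q-high pair counts close to the product, as given above. Of Arg1, Mrc1, Trem2 and Apoe, all 4 were seen in 18 of 373 thinned C1q-high barcodes (4.83%). There, 3 were seen in 110 (29.5%), 2 in 130 (34.9%), 1 in 95 (25.5%) and none in 20 (5.36%). In C1q-low barcodes all 4 were seen in 1 of 147, 3 in 13, 2 in 27 (18.4%), 1 in 60 (40.8%) and none in 46 (31.3%). No product of the 4 shares was set beside these counts. Over all myeloid barcodes, where both classes are mixed, Mrc1 and Chil3 were seen together in 2 of 520 barcodes, against a product of 9.67.

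Likeness to other genes was taken as Pearson's r of log-transformed UMIs over the 473 myeloid barcodes with at least 2000 UMIs, thinned to that depth, among 7022 genes. These barcodes share 1 library, so r is a description. Apoe went most closely with C1qc (r = 0.59), C1qa (0.59) and C1qb (0.56), the genes of the split, and then with Lgmn (0.45) and Ctss (0.43), which encode lysosomal proteases. Mrc1 went with Pf4 (0.38), C1qc (0.35), C1qa (0.33), C1qb (0.32) and Serinc3 (0.30). Arg1 went with Fn1 (0.39), Thbs1 (0.38), Fth1 (0.36), Ctsl (0.35) and Lyz2 (0.35), of which Fn1 encodes fibronectin, Thbs1 a matrix glycoprotein and Fth1 the ferritin heavy chain. Trem2 reached 0.3 with Apoe (0.36) and no other gene. Chil3 went with Plac8 (0.38) and Ly6c2 (0.35), both on the monocyte list. Between members, r was 0.03 for Arg1 and Mrc1 and -0.21 for Apoe and Chil3.

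Myeloid barcodes held 6 of the 7 counted members at least 2-fold higher than tumour barcodes did, beside 19.0% of the 13914 genes counted, and Nos2 was the exception. None of the 7 was at least 2-fold lower in myeloid barcodes, beside 28.7% of genes. The ratio of myeloid to tumour was 1088 for Arg1, 1175 for Apoe, 475 for Mrc1, 31.9 for Trem2 (29.4 to 34.7) and 16.8 for Gpnmb (9.08 to 29.5). Chil3 had 7 UMIs in all tumour barcodes, 0.0431 CPM. For Nos2 the pooled ratio was 1.26 (0.9898 to 1.58). By tag, Nos2 was higher in myeloid than in tumour barcodes in 2 of 5 tags and lower in 3. It stood at 70.7 CPM in myeloid and 30.8 CPM in tumour barcodes of U2, against 6.83 and 20.5 CPM in D1.

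Nos2 gave 4004 UMIs in 1266 of 5810 tumour barcodes, 24.7 CPM (23.9 to 25.4) and a share of 21.8% (20.7 to 22.9). Cd3 barcodes (651, cut by at least 3 Cd3 UMIs) were a T cell class set here as the gauge of free RNA. The Cd3 rule also capped Lyz2, C1q and keratin UMIs per barcode. Barcodes richest in macrophage or tumour RNA were thus outside this gauge, for Nos2 here and Trem2 below. In Cd3 barcodes 1 Nos2 UMI was found, a share of 0.154% at a median depth of 1724 UMIs. Thinned to 1000 UMIs, the share was 2.24% (1.88 to 2.66) in tumour and 0.162% (0.00410 to 0.898) in Cd3 barcodes. The 10% of tumour barcodes with most Nos2 held 80.5% of its UMIs, and the highest barcode held 37. By tag the tumour level was 25.6 CPM in D0, 20.5 CPM in D1, 14.4 CPM in D4, 30.8 CPM in U2, 16.8 CPM in U3 and 20.1 CPM in U4. U2 was thus the highest tag for Nos2 in tumour as well as in myeloid barcodes. Thinned to 5000 UMIs, 10.5% (9.10 to 12.1) of U2 tumour barcodes had a Nos2 UMI. That share was 7.76% in D1, 7.32% in D0, 6.36% in U4 and 4.67% in U3. In D4 it was 0.633% (0.0160 to 3.48), from 1 of 158 barcodes. Unthinned, the share was 25.9% in U2 and 17.5% in D4.

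Trem2 gave 1785 UMIs in 1172 tumour barcodes, 11.0 CPM (10.5 to 11.5) and a share of 20.2%, against 3.49 CPM (1.13 to 8.15) and 0.461% in Cd3 barcodes. It was thinly spread, with at most 8 UMIs in a barcode, and the tumour level was 10.1 CPM in D0, 9.02 CPM in D1, 10.5 CPM in D4, 12.7 CPM in U2, 5.60 CPM in U3 and 5.51 CPM in U4. Thinned to 1000 UMIs the tumour share was 0.932%, against 0 of 618 Cd3 barcodes, which allows a share with a UMI of up to 0.485%. Nos2 and Trem2 were together in 405 tumour barcodes against a product of 255, but this count was made without thinning, and r between them at 5000 UMIs was 0.04 over 5706 barcodes. No gene reached an r of 0.3 with Nos2 or Trem2 there: the highest were Ero1l with Nos2 (0.27) and Serpine2 with Trem2 (0.14), a likeness looked up after the tumour levels had been seen.

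Tumour barcodes were then split by macrophage RNA. In the 68 tumour barcodes with at least 3 Lyz2 and C1q UMIs, Arg1 stood at 73.3 CPM (44.1%), Apoe at 268 CPM (73.5%), Mrc1 at 12.5 CPM (23.5%), Trem2 at 34.6 CPM (57.4%) and Nos2 at 35.0 CPM (35.3%). In the 5240 tumour barcodes with no Lyz2 or C1q UMI, Nos2 stood at 24.5 CPM (21.3% of barcodes) and Trem2 at 10.8 CPM (19.7%), close to their levels in the whole class. There, Arg1 stood at 0.291 CPM (0.744%), Apoe at 1.74 CPM (4.35%) and Mrc1 at 0.395 CPM (1.09%). Per 100 Lyz2 UMIs, myeloid barcodes held 17.8 Arg1 and 80.6 Apoe UMIs, against 18.0 and 75.3 in tumour barcodes. For Trem2 there were 4.08 in myeloid and 140.1 in tumour barcodes, and for Nos2 0.361 in myeloid and 314 in tumour barcodes. Mrc1 lay between, with 3.26 in myeloid and 7.54 in tumour barcodes. Gpnmb had 0.0771 in myeloid and 5.02 in tumour barcodes, but it too was higher beside macrophage RNA, at 4.58 CPM from 2 of the 68 barcodes against 0.332 CPM in the 5240. Chil3 had 1.96 in myeloid barcodes, 0.882 in the C1q-high and 7.04 in the C1q-low ones, and 0.549 in tumour barcodes. In tumour barcodes Chil3, Il10 and Cd163 had 7, 4 and 14 UMIs, too few for a reading. Per Lyz2 UMI, Arg1 and Apoe were thus close between the classes, and Mrc1, Trem2, Nos2 and Gpnmb were not.

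**Figure D4:**
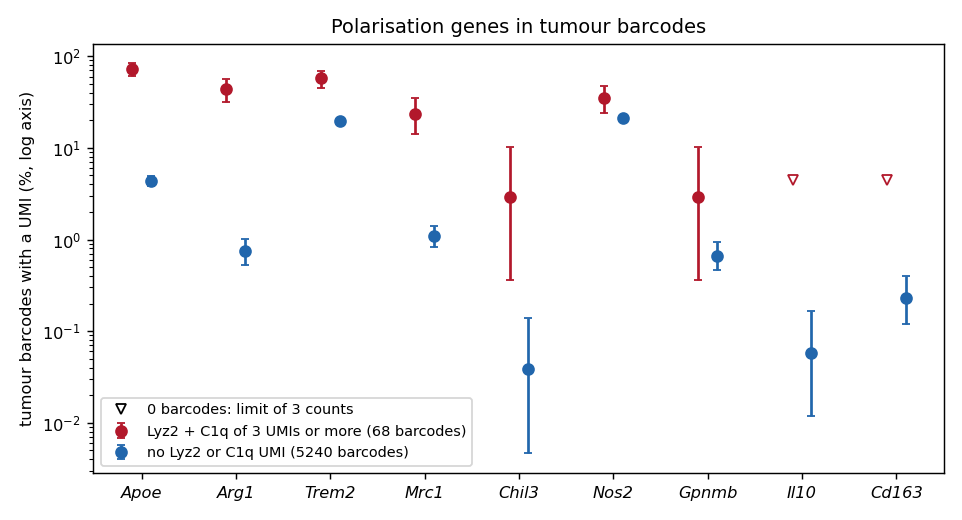
Share of tumour barcodes with a UMI of each member (%, log axis) among the 68 with at least 3 Lyz2 and C1q UMIs and the 5240 with none, with exact 95% bars; open triangles are the limit that 0 barcodes allow. Nos2 and Trem2 are found in 21.3% and 19.7% of barcodes without Lyz2 or C1q, whereas Arg1 is found in 0.744%.

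Tumour RNA in myeloid barcodes was gauged from the keratins. In the 442 myeloid barcodes with no Krt8 or Krt18 UMI, Nos2 stood at 27.4 CPM (20.3 to 36.1), and in the 84 with 1 to 5 it stood at 42.7 CPM (27.7 to 63.1), with overlapping intervals. A single barcode held 9 of the 25 Nos2 UMIs of those 84, which stood at 28.8 CPM (16.5 to 46.8) without it, and a single barcode held 9 of the 50 of the keratin-free ones, which stood at 22.5 CPM (16.2 to 30.5) without it. The myeloid Nos2 level, at 31.1 CPM, was close to the tumour level, and the part of tumour RNA in it was not tested beyond these values. Arg1 stood at 831 CPM in myeloid barcodes with keratin UMIs and 1760.1 CPM in keratin-free ones, and Apoe at 3937 and 7903 CPM in the same order.

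In the other cell classes the order of levels was as follows. Apoe came next after the myeloid classes in B barcodes (89, cut by Cd79a, Cd79b and Ms4a1), with 43 UMIs or 276 CPM (199 to 371) in 19.1% of them, below C1q-low barcodes and above Cd3 barcodes, which had 9.08 CPM. Those B barcodes held 3 Lyz2 UMIs in all, but the B rule also capped Lyz2 per barcode, so this count was limited in advance. In the 82 of them with no Lyz2 or C1q UMI, Apoe stood at 271 CPM (194 to 369). Tag U3 marked 72 of the 89 B barcodes, and these held 33 of the 43 Apoe UMIs. From Cd3 barcodes down, neighbours in the order overlapped in their intervals. Arg1 in every class but the myeloid ones was at 8.38 CPM or less, with neighbours overlapping. Mrc1 in 39 dendritic barcodes was 45.3 CPM (18.2 to 93.4), overlapping C1q-low barcodes, but from 7 UMIs in 2 barcodes. The 36 dendritic barcodes with no Lyz2 or C1q UMI held 0 Mrc1 UMIs, so all 7 lay in barcodes with such RNA.

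Il10 had its highest level outside the myeloid classes, in Cd3 barcodes, with 22 UMIs in 14 barcodes or 15.4 CPM (9.63 to 23.3), above the C1q-high interval. All 22 were in Cd3 barcodes without a Lyz2 or C1q UMI, 4 or fewer of them in each of D0, D1 and D4, 5 in U2 and 8 in barcodes with several tags. Nos2 in 1344 barcodes cut by Dcn, Lum and Pdgfra was 41.1 CPM (38.4 to 43.9), above tumour barcodes, and Trem2 there was 13.1 CPM (11.6 to 14.8), also above. That class carries the tumour markers at 977 CPM and is named by its rule only. Nos2 in 39 endothelial barcodes was 28.1 CPM (11.3 to 57.9), from 7 UMIs in 7 barcodes. Gpnmb had 4 UMIs in B barcodes, all in 1 barcode with several tags, and, of the other neighbours in its order, the Dcn class (0.928 CPM) and tumour barcodes (0.394 CPM) alone had intervals apart. Cd163 had 14 UMIs in tumour barcodes, 1 in each of 14, and at most 3 in any other class.

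The genes that work with the members were counted from lists of their pathways, again as C1q-high over C1q-low, and are read beside the 9.78% of all genes counted that were higher and the 3.13% that were lower. Of 14 alternative activation genes, 11 were counted, with 4 more than 2-fold higher, 1 more than 2-fold lower and a median ratio of 1.31. Retnla (the secreted Fizz1), with 68 UMIs in C1q-high and 0 in C1q-low barcodes, was at least 5.81-fold higher, and Folr2, a folate receptor of resident macrophages, with 47 and 0 UMIs, at least 4.02-fold. Pdcd1lg2, which encodes PD-L2, had 34 and 1 UMIs, a ratio of 8.72 with an interval of 1.46 to 354. Stab1, a scavenger receptor, at 2.09, and Clec10a, a lectin with 13 and 7 UMIs, at 0.476, were the other 2 past 2-fold and are named after their values were seen. Fn1, Tgfbi and F13a1, which gave the most UMIs of this list, stayed within 2-fold at ratios of 1.44, 0.885 and 0.926. Fn1 stood at 3432 CPM in tumour barcodes, above both myeloid classes (2041 CPM in C1q-high and 1413 CPM in C1q-low), and the part of tumour RNA in its myeloid level, and in its likeness to Arg1, was not tested.

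Of 11 counted classical activation genes, 3 were more than 2-fold lower in C1q-high barcodes and 1 was higher, with a median of 0.747. Il1b, the inflammatory cytokine, was at 2583 CPM in C1q-high and 5413 CPM in C1q-low barcodes, Cxcl10, an interferon-induced chemokine, at 265 and 874 CPM, and Cd80, a co-stimulatory ligand, at 45.3 and 91.5 CPM. Cxcl9, a chemokine induced by interferon gamma, went the other way, at 431 CPM in C1q-high and 110 CPM in C1q-low barcodes (ratio 3.93, 2.98 to 5.28). Cxcl10 stood at 203 CPM in tumour barcodes, and the part of tumour RNA in its myeloid level was not tested. Of 18 lipid-associated genes, all counted, 2 were higher and 0 lower, with a median of 0.816, the higher count being close to the share over all genes. Abca1, which exports cholesterol to apolipoproteins, was 3.46-fold higher (2.50 to 4.92), and Cd36, a fatty acid receptor, 2.22-fold with an interval of 0.681 to 11.5. Spp1 (osteopontin), Tyrobp (the Trem2 adaptor) and Lgals3, which gave the most UMIs of the list, were at ratios of 0.538, 0.747 and 0.805. Spp1 stood at 31801 CPM and Lgals3 at 1602 CPM in tumour barcodes, and the part of tumour RNA in their myeloid levels was not tested.

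Of 11 arginine and polyamine genes, 0 were higher and 2 lower, with a median of 0.919. Ass1, which remakes arginine from citrulline, was at 76.1 CPM in C1q-high and 187 CPM in C1q-low barcodes, and Gch1, which makes the cofactor of nitric oxide synthase, at 51.6 and 110 CPM. Odc1, which turns the ornithine that arginase makes into putrescine, was at a ratio of 1.88 (1.44 to 2.49), the transporter Slc7a2 at 1.60, and Sat1 at 0.905. In tumour barcodes Odc1 stood at 194 CPM, Slc7a2 at 114 CPM and Sat1 at 543 CPM. The part of tumour RNA in their myeloid levels was not tested. Of 8 counted genes of the IL-10 pathway, Maf, a transcription factor that drives Il10, was higher (3.38, 2.27 to 5.25) and Bcl3 lower (0.401, 0.206 to 0.803), and the median was 0.922. Socs3 and Jak1 were at 0.799 and 0.772. Of 8 scavenger and haem genes, 3 were counted and none passed 2-fold, with Msr1 at 1.30, Blvrb at 1.55 and Hmox1 at 1.68. Hmox1 stood at 176 CPM in tumour barcodes, against 164 CPM in C1q-high and 97.6 CPM in C1q-low barcodes, and the part of tumour RNA was again not tested.

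Of 10 genes for polarising inputs, Tlr4 was higher at 2.20 but with an interval of 0.875 to 7.13, Il13ra1 was lower at 0.463 (0.327 to 0.663), and the median was 0.899. Csf1r, Tlr2 and Ifngr1 were at 1.26, 1.17 and 0.964. Of 14 regulators, 11 were counted and 0 passed 2-fold in either direction, with a median of 1.08. Among them Cebpb was at 0.628 and Klf4 at 1.21.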

How the data were processed

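The authors' deposited matrix holds raw UMI counts per gene and per antibody tag for 9747 distinct barcodes of 1 pooled 10x library. Per the submitters' processing notes the authors used Cell Ranger and mm10, and per the file headers software version 3.1.0 wrote the matrix. Their annotation was not given in the sources used here.

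Barcodes with under 500 genes (696) or at least 15% mitochondrial counts (267 of the rest) were removed. UMIs were summed per class and given as CPM, with exact Poisson, Clopper-Pearson or conditional binomial 95% intervals (scipy 1.17.1, numpy 2.4.6, pandas 2.3.3). A gene counts as higher or lower past 2-fold with at least 20 UMIs in the classes compared. A count of 0 is limited by 3 counts. Tags were assigned with HTODemux (Seurat 5.3.0, R 4.3.3, positive quantile 0.99, seed 42): 5590 barcodes had 1 tag, 865 several (9.85%) and 2329 none. The rule names no doublet filter, so several-tag barcodes (46 of the myeloid ones) were kept and removed as an alternative; no doublet caller was run. Shares and pairs named as thinned were taken at 1000 UMIs unless another depth is given, and thinning to 1000 UMIs left out 4 C1q-high and 2 C1q-low barcodes. Other shares, the counts of Nos2 with Arg1 and the tumour count of Nos2 with Trem2 were not thinned. The scripts were tested on simulated data.

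Named genes are the 9 members, the 3 genes of each list with most myeloid UMIs plus up to 3 past 2-fold, and up to 5 genes with r of at least 0.3 to members seen in at least 10% of myeloid barcodes; 1 gene and 1 motif are not reported here. The members and lists were chosen with earlier results of these data known.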

Additional observations from a re-analysis of the deposited data

How the results depend on the processing

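The count of members more than 2-fold higher in C1q-high barcodes (3) was 5 with no UMI minimum, which adds Gpnmb and Il10, and 2 to 3 with each tag left out in turn. It was 2 without tag D1 and 2 with a Lyz2 minimum of 10, where Trem2 was no longer past 2-fold. The count lower (1) was 2 without tag U2, which adds Nos2, and 1 to 2 over the tags left out. The count of members higher in myeloid than in tumour barcodes (6) was 6 to 7 under every alternative run. Of pairs above the product, the C1q-high count (8 of 9) was 13 of 16 unthinned and 5 to 8 over the tags left out, 5 of 8 without D1. The C1q-low count (5 of 6) was 3 with several-tag barcodes removed, 3 with 1 tag only, 3 with a C1q sum of at least 1, 3 thinned to 2000 UMIs, and 3 to 6 over the tags left out, 3 without D1.

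Over 19 alternatives each, the C1q-high over C1q-low ratio was 3.51 to 4.88 for Apoe, 1.32 to 1.72 for Arg1, 1.97 to 2.73 for Trem2, 5.29 to 7.34 for Mrc1 and 0.0908 to 0.233 for Chil3. For Nos2 it was 0.356 to 1.30, above 1 with a C1q sum of at least 1 (1.30) and with a Lyz2 minimum of 10 (1.21). Removing the highest barcode of each gene and class, an alternative chosen after seeing the data, gave 0.0999 for Chil3 and 0.782 for Nos2. The causes were not tested. For ACSS2i and vehicle no paired analysis was possible because no tag is tied to an arm or a replicate number. The myeloid classes were set side by side within each of the 3 tags with enough barcodes, by value and with no test. Depth limits Gpnmb, Il10 and Cd163, and D4 had 13 myeloid barcodes.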
